A study of Mus musculus with 30 samples.

Results

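The T and NK genes are 32 genes whose products build or drive T lymphocytes and natural killer (NK) cells, out of 21631 mouse protein-coding genes with a place on the numbered chromosomes or X. They were taken by name: 8 genes of the T cell receptor complex and its co-receptors, 4 genes of receptor signalling, 7 T cell surface receptors, 6 transcription factors and 7 NK and cytotoxic genes. A ChIP-seq peak was counted for a gene when it overlapped the gene's span widened by 1 kb on each side, and a peak over no such span went to the protein-coding gene with the nearest end within 50 kb. Of the 51041 distinct regions that the acetylation lists of the series cover, 84 fell to these 32 genes. Coordinates are of mm10 throughout.

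The study deleted Crebbp, which encodes the acetyltransferase CBP, in C57BL/6 mice and used chromatin immunoprecipitation to map acetylated histone H3. Crebbp-null lymphoproliferative disease (LPD) was bulk splenocytes, unsorted, from Crebbp-/- (CBPfl/fl:Mx-Cre+) mice, with 2 peak lists per mark, the marks being H3K27ac, H3K18ac and H3K56ac. Wild-type B cells were B220+ splenocytes sorted from CBPfl/fl:Mx-Cre- mice, with 2 lists for each of the same 3 marks and 1 list for CBP itself. Crebbp-null and wild-type progenitors were Lin- IL7ra+ lymphoid progenitors sorted from lineage-depleted bone marrow of the same 2 genotypes, with 1 H3K27ac list each. The wild-type mice carry the floxed alleles too, and lack only the Mx-Cre transgene, an inducible Cre that is active in many blood lineages and outside blood. LPD and B cells differ in genotype, in disease and in sorting at once, so these cannot be told apart. No label gives an age or says whether lists 1 and 2 came from separate mice, so p-values measure the spread between these lists, which may be technical.

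T cells recognise peptide through a receptor whose CD3 and zeta chains carry the signal into the cell, where the kinases Lck and Zap70 and adaptors such as Lat pass it on. NK cells kill without that receptor, through surface receptors and granules loaded with perforin and granzymes. Several of these genes are also used by B lineage cells or by their precursors: mouse B cells carry the adhesion receptor CD2, B-1 cells carry CD5, and lymphoid progenitors can start T lineage genes before they commit. Acetylation of histone H3 on lysines 27, 18 and 56 marks active enhancers and gene starts, and CBP is one of the enzymes that write it.

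The start windows of 5 genes show where acetylation at these genes differed between the cells. They are RefSeq sequences of GRCm38.p6, which has the coordinates of mm10, and run from 250 bases before to 50 bases after the gene start, 5′ to 3′ on the gene's strand. Capitals mark matches to the motifs named below. The Ctla4 window (chr1:60908775-60909074, plus strand) was overlapped by a peak in all 6 LPD lists and in no B cell list. The Prf1 window (chr10:61297586-61297885, plus strand) was overlapped in all 6 B cell lists and the wild-type progenitor list, and in no LPD list. The Lat window (chr7:126369519-126369818, minus strand) was overlapped in both LPD lists of H3K18ac and in no other list. The windows of Zap70 (chr1:36761548-36761847, plus strand) and Nkg7 (chr7:43436888-43437187, plus strand) were overlapped in the wild-type progenitor list and in no other, and were picked for printing after their values were seen. Windows of Tcf7 met the same condition and are not printed.
Ctla4: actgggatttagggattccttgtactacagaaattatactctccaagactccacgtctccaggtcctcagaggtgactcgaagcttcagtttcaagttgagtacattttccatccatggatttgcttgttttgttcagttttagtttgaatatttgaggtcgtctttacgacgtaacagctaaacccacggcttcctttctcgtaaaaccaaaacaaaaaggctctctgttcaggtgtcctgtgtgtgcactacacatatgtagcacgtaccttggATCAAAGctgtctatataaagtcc
Prf1: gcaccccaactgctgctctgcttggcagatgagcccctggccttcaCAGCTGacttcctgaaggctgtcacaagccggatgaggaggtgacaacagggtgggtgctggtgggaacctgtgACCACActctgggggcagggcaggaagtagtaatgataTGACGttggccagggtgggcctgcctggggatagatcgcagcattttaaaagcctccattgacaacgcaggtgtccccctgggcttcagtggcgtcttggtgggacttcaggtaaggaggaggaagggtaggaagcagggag
Lat: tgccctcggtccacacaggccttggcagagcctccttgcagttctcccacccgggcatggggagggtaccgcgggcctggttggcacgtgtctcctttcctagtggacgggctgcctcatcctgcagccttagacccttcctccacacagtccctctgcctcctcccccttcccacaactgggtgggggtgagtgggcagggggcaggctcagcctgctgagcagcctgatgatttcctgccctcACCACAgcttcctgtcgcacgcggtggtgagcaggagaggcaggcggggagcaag
Zap70: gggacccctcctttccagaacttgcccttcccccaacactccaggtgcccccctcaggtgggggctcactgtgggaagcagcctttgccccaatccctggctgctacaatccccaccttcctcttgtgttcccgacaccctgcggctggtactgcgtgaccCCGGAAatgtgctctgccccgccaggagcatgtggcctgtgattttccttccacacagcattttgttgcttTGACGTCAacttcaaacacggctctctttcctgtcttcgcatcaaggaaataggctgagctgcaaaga
Nkg7: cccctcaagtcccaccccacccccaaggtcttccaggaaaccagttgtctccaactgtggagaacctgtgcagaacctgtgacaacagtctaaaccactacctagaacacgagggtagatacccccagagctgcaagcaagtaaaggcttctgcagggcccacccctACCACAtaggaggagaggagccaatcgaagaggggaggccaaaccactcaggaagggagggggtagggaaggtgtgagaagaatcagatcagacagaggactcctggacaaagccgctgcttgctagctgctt

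Of the 32 genes, 23 have at least 1 such window. Motifs were searched on both strands. The Ctla4 window holds the TCF site CTTTGAT, read on its other strand. That site was in the windows of 2 of the 23 genes, Cd3d and Ctla4, and of 3.79% of the 17274 genes with a window. The Prf1, Lat and Nkg7 windows each hold the RUNX site TGTGGT on the other strand, a motif found in the windows of 9 of the 23 T and NK genes and of 17.0% of all genes. The Prf1 window also holds the E-box CAGCTG (8 of 23 and 17.6% of all genes) and the core TGACG of the cAMP response element (4 of 23 and 26.5% of all genes). Zap70 alone among the 23 has the full element TGACGTCA, in which that core lies on each strand, against 2.58% of all genes. Its window also has the ETS core CCGGAA (3 of 23 and 21.2% of all genes). The GATA site AGATAA was in the windows of 2 of the 23 and of 11.3% of all genes. A match describes the letters only.

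Across the 14 acetylation lists, 15 of the 32 genes (46.9%) had no peak in any list, where 40.2% of all protein-coding genes had none. Of the 8 receptor and co-receptor genes, 5 had no peak: Cd3e and Cd3g, which encode CD3 chains, Cd8a and Cd8b1, the CD8 co-receptor, and Ptcra, the partner chain of the immature receptor. Among surface receptors it was Thy1, the classical mouse T cell marker. Of the 6 transcription factor genes, 5 had none: Bcl11b and Gata3, which commit cells to the T lineage, Foxp3 of regulatory T cells, and Tbx21 and Eomes, which drive cytotoxic and NK fates. Of the 7 NK and cytotoxic genes, 4 had none: Klrd1 and Ncr1, NK receptors, and the granzyme genes Gzma and Gzmb. Each of the 4 signalling genes had a peak in at least 1 list.

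How far the nearest acetylation lay differed between these silent genes. For Ptcra the closest peak of any list was 2.78 kb away, at a region counted for Cnpy3 in 2 lists, and for Cd3g it was 3.51 kb away, counted for Ube4a. Foxp3 lay 4.37 kb from a region counted for Ppp1r3f that all 14 lists hold. Eomes and Klrd1 were 19.9 and 54.2 kb from regions held by all 14 lists. The emptiest surroundings were those of Bcl11b, Ncr1 and Gzmb, whose nearest peaks lay 135, 74.3 and 291 kb away.

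**Figure D1:**
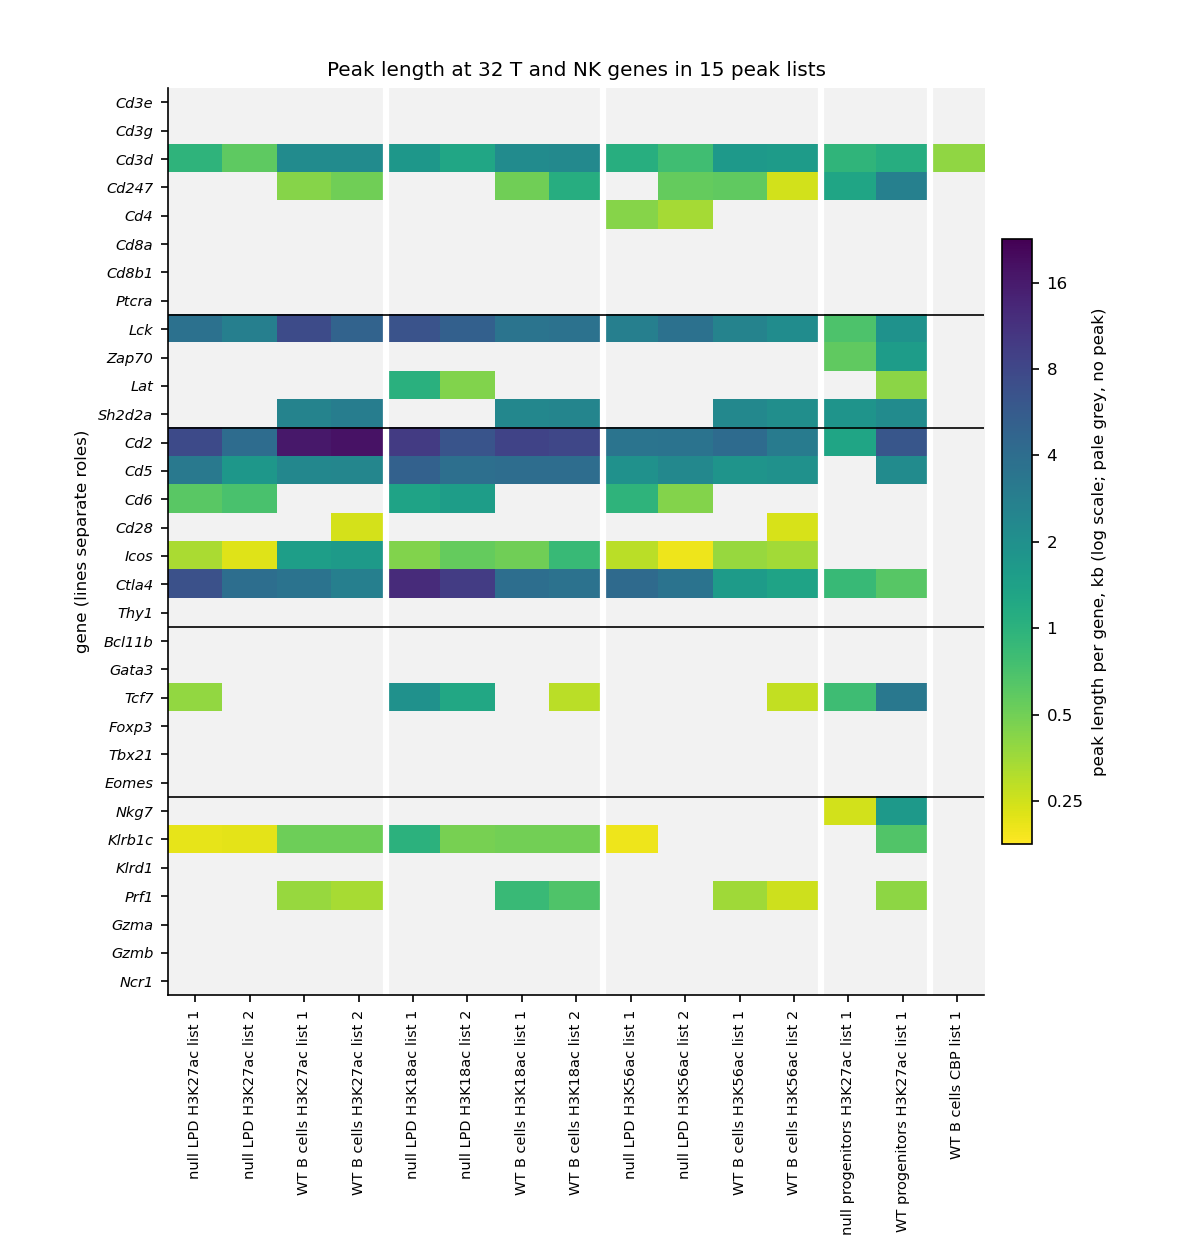
Peak length per gene in kb on a log colour scale, for the 32 T and NK genes (rows, by role) in the 15 peak lists (columns, LPD left of B cells within each mark, then null and wild-type progenitors, then CBP). Pale grey cells have no peak: 15 rows are empty in every list, and Cd3d, Lck, Cd2 and Ctla4 are filled in all 14 acetylation lists.

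The other 17 genes had a peak in at least 1 list, and 4 of them (Cd3d, Lck, Cd2 and Ctla4) in all 14. A gene is called acetylated in a group here when every list of that group has a peak counted for it. For H3K27ac, 8 of the 32 genes were acetylated in LPD and 10 in B cells, where 48.7 and 49.6% of all genes were. For H3K18ac it was 10 in LPD and 10 in B cells, against 50% and 42.7% of all genes. For H3K56ac it was 8 in LPD and 9 in B cells, against 49.6 and 43.4% of all genes. The share of the T and NK genes, between 25.0 and 31.2%, lay below that of all genes in each of these 6 sets. In progenitors 9 of the 32 had H3K27ac peaks in the null list and 13 in the wild-type list, against 39.4 and 44.5% of all genes.

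The sets overlapped in most of their genes. All 3 marks were found at Cd2, Cd3d, Cd5, Ctla4, Icos and Lck in both LPD and B cells, at Cd6 in LPD with no peak in any B cell list, and at Sh2d2a and Prf1 in B cells with no peak in any LPD list. Cd247 had all 3 marks in B cells and peak length in 1 of the 6 LPD lists. Cd4 and Lat had peaks in LPD and in no B cell list. Cd28, the main costimulatory receptor of T cells, had 1 peak in 1 B cell list of H3K27ac and of H3K56ac, of 0.243 and 0.237 kb, and none elsewhere. Zap70 and Nkg7 had peaks in progenitors and nowhere else. In bulk splenocytes fewer cells with a mark and less of the mark per cell cannot be told apart.

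Of the peak length that each list gave to genes, the T and NK genes held 0.851 and 0.727 parts per 1000 in the LPD lists of H3K27ac, against 1.33 and 1.31 in the B cell lists. For H3K18ac these shares were 1.39 and 1.41 in LPD, against 1.93 and 1.88 in B cells, and for H3K56ac 0.842 and 0.785 in LPD, against 1.34 and 1.30 in B cells. By this share the LPD lists lay below the B cell lists for each mark. In kb, the T and NK genes summed to 23.8 and 14.2 in LPD and 37.7 and 36.2 in B cells for H3K27ac. For H3K18ac the order was opposite, at 41.3 and 30.6 kb in LPD and 26.9 and 27.5 kb in B cells. H3K56ac was close, at 15.5 and 15.4 kb in LPD and 15.5 and 13.4 kb in B cells. In progenitors the share was 1.20 in the null list and 2.37 in the wild-type list. Read depth is unknown, and the size of each list is given in its place: the LPD lists hold 27581 to 39529 peaks over 17.0 to 29.5 Mb, the B cell lists 18763 to 30523 over 9.44 to 27.1 Mb, the null progenitor list 13125 over 6.32 Mb and the wild-type progenitor list 17124 over 9.43 Mb. Each B cell list of H3K18ac and H3K56ac is shorter than each LPD list of that mark.

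For each mark the peak length per gene in LPD was set against B cells with limma on log2(kb + 0.5), over all genes with a mean of at least 0.25 kb, and a gene was called at a Benjamini-Hochberg adjusted p under 0.05 over all genes tested. Of the 32 genes 9 could be tested for H3K27ac, 13 for H3K18ac and 9 for H3K56ac. The rest had a mean over the 4 lists below that minimum, also where a group was above it, as B cells were at Cd247 and Prf1 in H3K27ac and LPD at Cd4 in H3K56ac. A gene with no peak in 1 group enters only through the other, so its p-value adds no support to the lengths themselves. This holds for Cd6 and Sh2d2a in each mark and for Lat, Cd247 and Prf1 in H3K18ac. H3K27ac was called higher in LPD at 1 gene, where 7.54% of all genes tested were, and lower at 4, where 12.6% were. H3K18ac was called higher at 4 genes and lower at 3, against 29.4 and 3.46% of all genes tested, and H3K56ac higher at 2 and lower at 2, against 39.4 and 3.26%. The median log2 ratio of all genes tested was -0.10, 0.36 and 0.38 for H3K27ac, H3K18ac and H3K56ac, and that of the T and NK genes tested was -0.82, 0.12 and 0.00. With 1 list left out a group is down to a single list, which is then assumed to vary like the pair of the other group, so a call that stays under such a fit has little replicate support of its own. For H3K27ac, leaving out LPD list 1 gave 0 T and NK genes higher and 7 lower, and leaving out LPD list 2 gave 0 higher and 6 lower. For H3K18ac, leaving out LPD list 1 gave 1 higher and 1 lower, and leaving out LPD list 2 gave 6 higher and 1 lower. For H3K56ac, limma called no gene of the whole table without LPD list 1 or 2, with 3744 and 3390 genes at an unadjusted p under 0.05, and 1 higher and 1 lower of the T and NK genes without either B cell list.

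These medians depend on the scale. Scaled to equal total covered length, the median of all genes moved to 0.11 for H3K27ac, -0.25 for H3K18ac and -0.17 for H3K56ac. That of the T and NK genes moved to -0.56, -0.67 and -0.51, so the median for H3K18ac changed sign. The share of calls that were higher went to 56.7, 34.9 and 36.9%, where unscaled it was 37.4, 89.5 and 92.4%. All 16 calls at T and NK genes kept their direction and stayed called on that scale, and Cd3d, Cd2 and Icos in H3K18ac and Cd2 and Cd5 in H3K56ac were then called lower as well. Cd5 in H3K18ac, at a log2 ratio of 0.12 unscaled, was at -0.67 on that scale and was called lower (adjusted p = 0.00603 by limma). Where a group has no peak the log2 ratio depends on the 0.5 kb added and is no measure of fold.

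**Figure D2:**
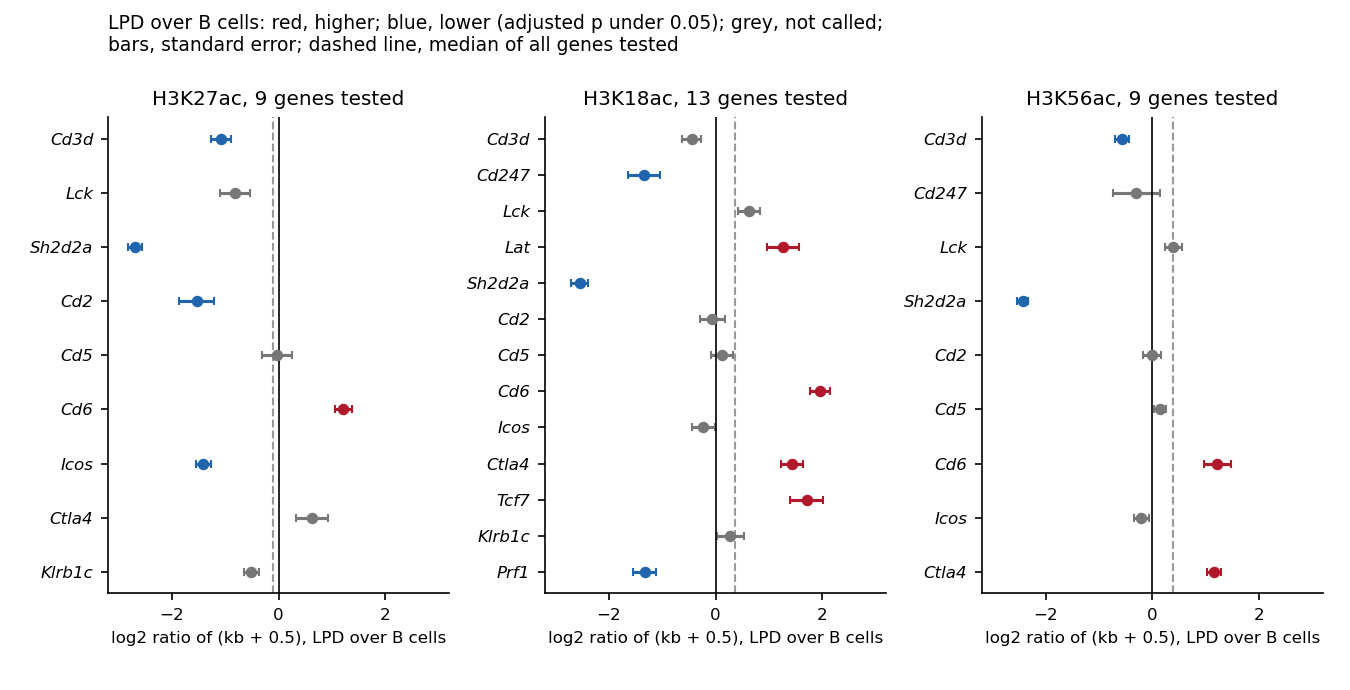
Log2 ratio of peak length (kb + 0.5) in LPD over B cells with its standard error, for the T and NK genes tested in each mark (n = 2 lists per group); red points were called higher and blue points lower, and the dashed line is the median of all genes tested. Sh2d2a lies lowest in each panel, between -2.69 and -2.43, and Cd6 lies at 1.21 or above in each.

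In the receptor complex, Cd3d was the 1 CD3 gene with acetylation, and it had it in every list. Its single region (chr9:44985445-44987761) spans the 3′ end of the gene. H3K27ac covered 0.970 and 0.589 kb in LPD, against 2.17 and 2.17 kb in B cells, so both LPD lists were below both B cell lists (log2 ratio -1.08 ± 0.183 SE, limma adjusted p = 0.0198). H3K56ac covered 1.08 and 0.790 kb in LPD, against 1.67 and 1.57 kb in B cells, again without overlap (-0.57 ± 0.130, adjusted p = 0.0329 by limma). That call was lost without any 1 of the 4 lists, at adjusted p between 0.0880 and 0.123. H3K18ac, with 1.72 and 1.29 kb in LPD and 2.16 and 2.29 kb in B cells, was not called (-0.45 ± 0.184, limma adjusted p = 0.123). Cd3d was also the 1 gene of the 32 with a CBP peak in B cells, of 0.396 kb within the same region, in a list that gave 3.89% of all genes a peak.

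Cd247, which encodes the zeta chain, was acetylated inside the gene in B cells. H3K18ac covered 0 kb in both LPD lists, against 0.502 and 1.10 kb in B cells (-1.34 ± 0.293, limma adjusted p = 0.0222), a call lost without either LPD list, at adjusted p of 0.236 and 0.232, and below the minimum length without B cell list 2. H3K27ac covered 0 kb in both LPD lists, against 0.426 and 0.503 kb in B cells, a mean over the 4 lists too low to test. H3K56ac did not separate the groups, at 0 and 0.555 kb in LPD and 0.574 and 0.246 kb in B cells. Cd4, the other co-receptor gene, had 1 region, chr6:124863764-124864192, in H3K56ac at 0.429 and 0.343 kb in LPD and 0 kb in both B cell lists. It lies 0.501 kb outside the Cd4 span and counts for the neighbouring Gpr162 as well.

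In signalling, Sh2d2a showed the widest difference. It encodes the T cell specific adaptor that binds Lck. Its 1 region, chr3:87845677-87848569, covers the lower end of the gene. H3K27ac covered 0 kb in both LPD lists, against 2.59 and 2.89 kb in B cells (-2.69 ± 0.134, limma adjusted p = 0.00138). H3K18ac covered 0 kb in both LPD lists, against 2.38 and 2.47 kb in B cells (-2.55 ± 0.165, limma adjusted p = 0.00105). H3K56ac covered 0 kb in both LPD lists, against 2.34 and 2.06 kb in B cells (-2.43 ± 0.105, limma adjusted p = 0.00167). The region was thus in all 6 B cell lists and in none of the 6 LPD lists, and it was also in both progenitor lists, at 1.84 kb in null and 2.16 kb in wild-type progenitors. Without either LPD list the H3K56ac call was lost, at adjusted p of 0.0870 and 0.0924, and the other 2 calls were made without any 1 list as well.

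Lck, the kinase that starts receptor signalling, was acetylated in every list at its start and inside the gene. H3K27ac covered 3.70 and 2.77 kb in LPD, against 7.52 and 4.84 kb in B cells, and H3K18ac 6.55 and 5.15 kb in LPD, against 3.51 and 3.66 kb in B cells. The order of the groups was thus opposite in these marks, and neither difference was called (-0.82 ± 0.281, adjusted p = 0.115, and 0.63 ± 0.199, adjusted p = 0.0642, by limma). H3K56ac covered 2.81 and 3.67 kb in LPD and 2.56 and 2.15 kb in B cells (0.39 ± 0.161, limma adjusted p = 0.126). Within the gene, a region at chr4:129569643-129571132 was in both LPD lists and in neither B cell list for H3K18ac, at 1.49 and 1.25 kb, while for H3K27ac all 4 lists had it. Part of the region at the Lck start is shared with Fam167b. For H3K27ac the B cell lists covered 4.87 and 4.34 kb there, but not all of it was counted for Lck in list 2. With peaks counted for 1 gene only, the H3K27ac log2 ratio was -0.15 (limma adjusted p = 0.779), so its size depends on this shared region.

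Lat, the membrane adaptor on which signalling proteins assemble, had H3K18ac of 1.04 and 0.447 kb in LPD and 0 kb in both B cell lists (1.27 ± 0.301, limma adjusted p = 0.0277). Without LPD list 1, or with lists of equal peak number, it fell under the minimum length and could not be tested. The region across its start and one just inside the gene also count for Spns1, and with peaks counted for 1 gene only Lat could not be tested. No H3K27ac or H3K56ac peak was counted for it in LPD or B cells.

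**Figure D3:**
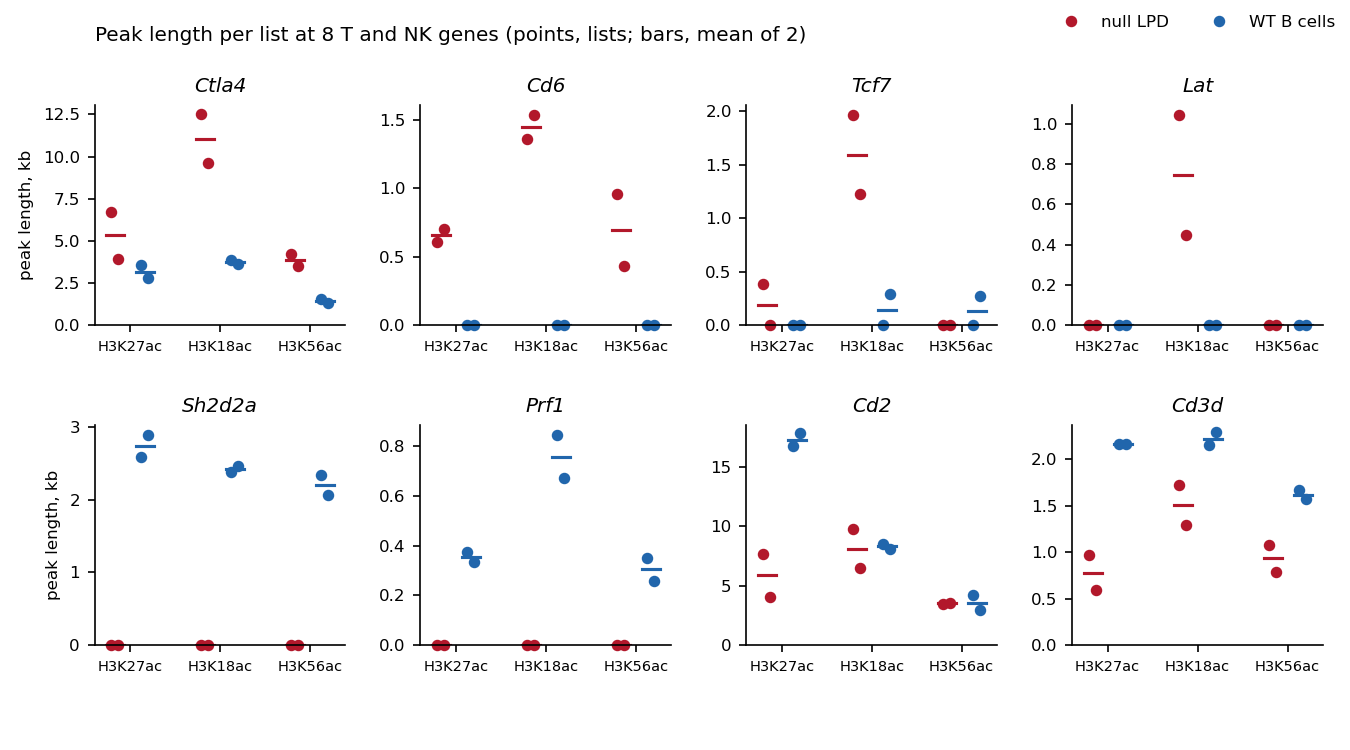
Peak length in kb in each list for 8 T and NK genes, by mark, with LPD (red) left of B cells (blue); points are lists and bars are the mean of 2. Ctla4 and Cd6 sit above the B cell lists in H3K18ac and H3K56ac, Sh2d2a and Prf1 are at 0 in the 6 LPD lists, and Cd2 separates the groups in H3K27ac but not in H3K18ac or H3K56ac.

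Among the surface receptors, Ctla4 and Cd6 had more acetylation in LPD, and Cd2 and Icos had less H3K27ac. Ctla4 encodes the inhibitory receptor that competes with CD28 for CD80 and CD86. Its H3K18ac covered 12.5 and 9.64 kb in LPD, against 3.90 and 3.62 kb in B cells (1.43 ± 0.203, limma adjusted p = 0.00629). H3K56ac covered 4.24 and 3.54 kb in LPD, against 1.59 and 1.35 kb in B cells (1.15 ± 0.131, limma adjusted p = 0.00703). Both LPD lists exceeded both B cell lists in each of these marks. H3K27ac covered 6.74 and 3.95 kb in LPD, against 3.57 and 2.81 kb in B cells, which did not overlap but was not called (0.63 ± 0.299, limma adjusted p = 0.225). Scaled to equal total length it was called higher (0.88, adjusted p = 0.00467 by limma). The H3K18ac call was lost without LPD list 1 (adjusted p = 0.0542), and the H3K56ac call without either LPD list (0.0945 and 0.0967).

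At Ctla4 the LPD lists held regions that the B cell lists lacked. A region across the 3′ end (chr1:60915511-60918183) was in all 14 acetylation lists. One region across the start (chr1:60908379-60910162) was in all 6 LPD lists and in no B cell or progenitor list, and so was one inside the gene (chr1:60912723-60914416). In H3K27ac the start region was the widest gained region of these genes, at 1.54 and 0.589 kb in the LPD lists and 0 kb in both B cell lists. In H3K18ac it was the widest as well, at 1.68 and 1.56 kb in LPD and 0 kb in both B cell lists. In H3K56ac the widest gained region lay upstream (chr1:60903113-60904223), at 1.11 and 1.02 kb in LPD and 0 kb in both B cell lists, and there both groups had H3K27ac and H3K18ac.

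**Figure D4:**
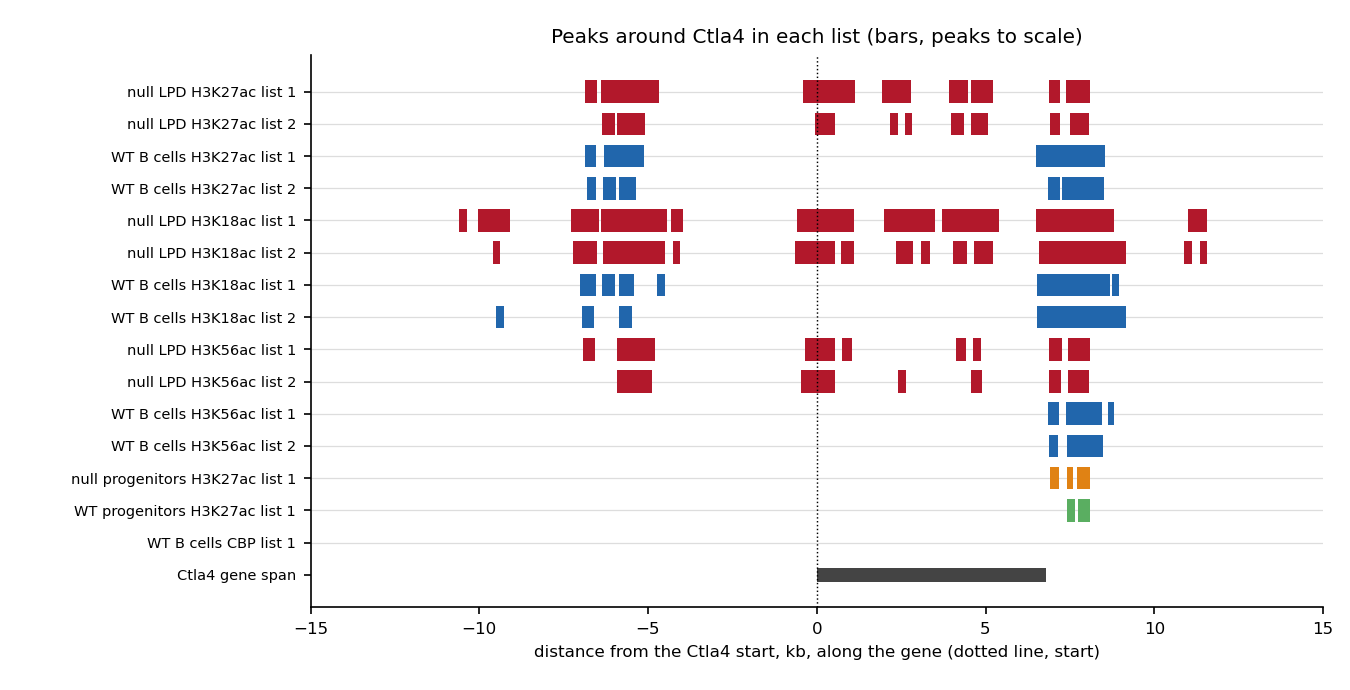
Peaks around Ctla4 in the 15 lists (bars, to scale), by distance in kb from the gene start (dotted line) along the gene, with the gene span below. All LPD lists (red) have a peak over the start and inside the gene where the B cell lists (blue) and progenitor lists have none, and all 14 acetylation lists have a peak at the gene's end, which lies 6.807 kb from its start.

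Cd6, a scavenger receptor family member that binds ALCAM, had peaks in every LPD list and in no B cell or progenitor list. H3K27ac covered 0.608 and 0.706 kb in LPD and 0 kb in both B cell lists (1.21 ± 0.161, limma adjusted p = 0.0106). H3K18ac covered 1.36 and 1.53 kb in LPD and 0 kb in both B cell lists (1.96 ± 0.182, limma adjusted p = 0.00203). H3K56ac covered 0.956 and 0.435 kb in LPD and 0 kb in both B cell lists (1.22 ± 0.260, limma adjusted p = 0.0282). Cd6 thus passed the minimum length through the LPD lists alone. With 0.1 kb added in place of 0.5 kb its H3K27ac log2 ratio was 2.92. One region inside the gene, chr19:10818221-10818881, was in all 6 LPD lists. The H3K18ac call was made without any 1 list as well. Without either LPD list Cd6 fell under the minimum length for H3K27ac, as it did for H3K56ac without LPD list 1. Its H3K56ac call was lost without LPD list 2 or either B cell list, at adjusted p between 0.0949 and 0.116.

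Cd5, the paralogue of Cd6 that dampens receptor signals, lies on the same chromosome and was called in no mark. H3K27ac covered 3.16 and 1.73 kb in LPD and 2.39 and 2.46 kb in B cells, H3K18ac 5.02 and 3.83 kb in LPD and 4.03 and 3.99 kb in B cells, and H3K56ac 1.95 and 2.36 kb in LPD and 1.83 and 1.93 kb in B cells. None was called (limma adjusted p = 0.945, 0.711 and 0.320), and in H3K27ac and H3K18ac the groups overlapped. The region at its start (chr19:10738454-10742976) was in all 12 of these lists. A region 8.37 kb before the start (chr19:10747398-10747881) was in all 6 LPD lists and in no B cell list.

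Cd2, the adhesion receptor that binds CD48 in the mouse, had the most peak length of the 32 genes in B cells. H3K27ac covered 7.67 and 4.06 kb in LPD, against 16.7 and 17.8 kb in B cells (-1.54 ± 0.332, limma adjusted p = 0.0370). Without either B cell list the call was lost, at adjusted p of 0.0511 and 0.0769, and with 0.1 kb added in place of 0.5 kb it was at 0.0508. Of the 16 regions at Cd2, 1 of 7.04 kb across the upper end of the gene was in all 12 lists. Those in both B cell lists and in neither LPD list in H3K27ac lay inside the gene or on its lower side, the widest of them chr3:101264948-101267269, which covers 2.32 kb. H3K18ac, at 9.72 and 6.46 kb in LPD and 8.53 and 8.06 kb in B cells, and H3K56ac, at 3.49 and 3.55 kb in LPD and 4.17 and 2.98 kb in B cells, overlapped between the groups. Their adjusted p by limma was 0.879 and 0.985. Counting only peaks within 1 kb of the gene, Cd2 was not called for H3K27ac (-1.32, adjusted p = 0.0519 by limma) and was called higher for H3K56ac (0.47, adjusted p = 0.0227).

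Icos, the inducible costimulator, had a single acetylated region common to all 12 lists, 18.7 kb outside the gene on the side toward Ctla4 (chr1:60940345-60942064). H3K27ac there covered 0.327 and 0.226 kb in LPD, against 1.49 and 1.62 kb in B cells (-1.41 ± 0.144, limma adjusted p = 0.00555), and this call was made without any 1 list as well. H3K18ac, at 0.445 and 0.556 kb in LPD and 0.509 and 0.858 kb in B cells, was not called (limma adjusted p = 0.481). Of the H3K18ac in LPD list 2, 0.246 kb lay at another region (chr1:60953192-60953437), and 0.310 kb at the common one. H3K56ac, at 0.291 and 0.200 kb in LPD and 0.375 and 0.344 kb in B cells, was not called either (limma adjusted p = 0.281). Each region went to Icos only as the nearest gene end, and counting only peaks within 1 kb of the gene Icos could not be tested.

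Among the transcription factors only Tcf7 had peaks. It encodes TCF-1, the factor that turns on T cell genes in early progenitors. H3K18ac covered 1.96 and 1.23 kb in LPD, against 0 and 0.290 kb in B cells (1.71 ± 0.306, limma adjusted p = 0.0123). The call was lost without either LPD list (adjusted p = 0.216 and 0.162) and when only peaks within 1 kb of the gene were counted (0.69, adjusted p = 0.216 by limma). Of its 11 regions, those in both LPD lists lay inside the gene (chr11:52274431-52275074) and 15.7 kb before the start (chr11:52299046-52299976). H3K27ac reached 0.389 kb in LPD list 1 and 0 kb in the other LPD list and both B cell lists.

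Among the NK and cytotoxic genes, Prf1, which encodes perforin, was acetylated at its start in B cells. H3K18ac covered 0 kb in both LPD lists, against 0.845 and 0.672 kb in B cells (-1.33 ± 0.216, limma adjusted p = 0.00896). H3K27ac covered 0 kb in both LPD lists, against 0.373 and 0.333 kb in B cells, and H3K56ac 0 kb in both LPD lists, against 0.352 and 0.257 kb in B cells, both with a mean over the 4 lists too low to test. The peaks of all 6 B cell lists overlap the printed start window. The H3K18ac call was lost without either LPD list, at adjusted p of 0.0878 and 0.0828, and Prf1 fell under the minimum length without B cell list 1. Klrb1c, a killer lectin receptor that marks NK cells in C57BL/6 mice, had a region 17.8 kb behind its end, with H3K27ac of 0.212 and 0.215 kb in LPD and 0.512 and 0.520 kb in B cells (-0.51 ± 0.147, limma adjusted p = 0.0755). H3K18ac at this and 2 other regions behind the end summed to 0.996 and 0.474 kb in LPD and 0.501 and 0.492 kb in B cells (0.28 ± 0.254, limma adjusted p = 0.461). Nkg7, a granule membrane protein, had no peak in LPD or B cells.

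Region by region, one present in the pair of LPD lists of a mark and absent from its pair of B cell lists is called gained, and the reverse is called lost. For H3K27ac, 3 of the 13 T and NK genes with a region had a gained one (Cd5, Cd6 and Ctla4) and 4 a lost one (Cd2, Cd247, Prf1 and Sh2d2a), where 20.0 and 23.3% of all genes with a region did. For H3K18ac, 8 of 13 had a gained region and 4 a lost one, against 37.9 and 8.78% of all genes. For H3K56ac, 6 of 14 had a gained region (Cd2, Cd4, Cd5, Cd6, Ctla4 and Lck) and 3 a lost one (Cd2, Prf1 and Sh2d2a), against 33.6 and 7.77%. Cd5, Cd6 and Ctla4 had a gained region in each mark, and Cd2, Prf1 and Sh2d2a a lost one. Leaving out LPD list 2 gave 5 genes with a gained H3K27ac region, and leaving out B cell list 1 gave 7 with a lost one. For H3K56ac, 5 genes had a lost region without B cell list 1 and 6 without B cell list 2.

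At gene starts the sets were smaller. Of the 23 genes with a window, Lck, Cd5 and Ctla4 had H3K27ac at the start in LPD and Lck, Cd5 and Prf1 in B cells, where 37.2 and 40.2% of all genes with a window did. The same 3 genes per group had H3K56ac there, against 36.1% of all genes in LPD and 29.0% in B cells. H3K18ac was at 4 starts in LPD, with Lat added, and at 3 in B cells, against 33.9 and 28.7% of all genes. In progenitors, H3K27ac was at the start of Lck in the null list and at the starts of Lck, Zap70, Cd5, Tcf7, Nkg7 and Prf1 in the wild-type list, against 24.9 and 32.5% of all genes.

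In the progenitors, H3K27ac at the T and NK genes was shorter in the null list than in the wild-type list at most genes with a peak. With 1 list per genotype there is no replicate and no test, and the difference is described on log2(kb + 0.5). Of 13 genes with a peak, none was 2-fold or more higher in null progenitors and 6 were 2-fold or more lower, where 0.0819 and 5.81% of all 9765 genes with a peak were. The log2 ratio was below 0 at 12 of the 13 and at 8606 of the 9765, with a median of -0.94 for the T and NK genes and -0.25 for all. With 0.1 kb added in place of 0.5, 10 genes were 2-fold or more lower. The null list is also the shorter list, with 6.32 Mb covered against 9.43 Mb in the wild-type list, and the part of this in the differences was not tested.

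The 6 genes were Cd2, Cd5, Lck, Tcf7, Nkg7 and Klrb1c. Cd2 had 1.31 kb in null and 6.12 kb in wild-type progenitors, the largest length of these genes there. Tcf7 had 0.793 kb in null and 3.25 kb in wild-type progenitors, and its start was covered in the wild-type list only. Cd5 had 0 kb in null and 2.19 kb in wild-type progenitors. Nkg7 had 0.248 kb in null and 1.66 kb in wild-type progenitors, and Lck had 0.681 kb in null and 1.90 kb in wild-type progenitors. Klrb1c had 0 kb in null and 0.663 kb in wild-type progenitors. Cd5, Klrb1c, Lat and Prf1 had a peak in the wild-type list alone, and no gene had one in the null list alone.

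The genes that differed less were Cd247 with 1.30 kb in null and 2.74 kb in wild-type progenitors, Zap70 with 0.575 kb in null and 1.56 kb in wild-type progenitors, and Cd3d with 0.946 kb in null and 1.11 kb in wild-type progenitors. Zap70 encodes the kinase that docks on the phosphorylated zeta chain, and its 4 regions lay at the start and in the first part of the gene. Ctla4 was the 1 gene with more in the null list, at 0.858 kb in null and 0.618 kb in wild-type progenitors. The Sh2d2a region was common to both progenitor lists and the B cell lists. The Tcf7 regions of progenitors were other regions than those of LPD.

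**Figure D5:**
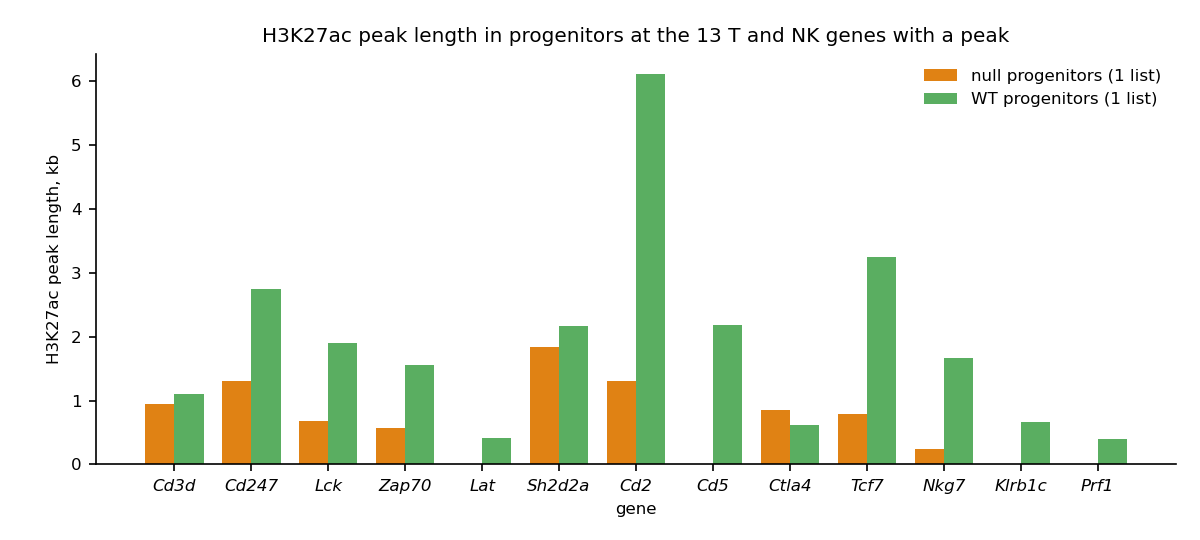
H3K27ac peak length in kb in null (orange) and wild-type (green) progenitors, 1 list each, at the 13 T and NK genes with a peak in either list. The null bar is the lower one at 12 genes, and the exception is Ctla4 at 0.858 kb in null and 0.618 kb in wild-type progenitors.

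Further lists of T and NK genes were looked at for comparison, chosen like the 32 genes with earlier results of these data known. Of 30 other T cell genes, 12 (40.0%) had H3K27ac in LPD and 18 (60.0%) in B cells. Of all genes, 48.7 and 49.6% did. By limma, 2 of the 16 tested were called higher in LPD and 6 lower, against 7.54 and 12.6% of all genes tested, with a median log2 ratio of -0.82. Dusp10, a phosphatase of MAP kinases, had 16.2 and 13.5 kb in LPD, against 3.58 and 3.49 kb in B cells (1.92 ± 0.201, limma adjusted p = 0.00582). Tespa1, an adaptor for receptor signalling in thymocytes, had 0.722 and 0.599 kb in LPD, against 5.91 and 6.25 kb in B cells (-2.51 ± 0.150, limma adjusted p = 0.00177). Dusp10 and Tespa1 were named for the largest log2 ratio of their direction among the genes called. That the groups did not overlap at these genes thus adds no support. For H3K18ac 7 of 15 tested were called higher and 1 lower, against 29.4 and 3.46% of all genes tested, and for H3K56ac 6 of 13 higher and 1 lower, against 39.4 and 3.26%.

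Of 27 other NK and cytotoxic genes, 5 had H3K27ac in LPD and 6 in B cells, or 18.5 and 22.2%, against 48.7 and 49.6% of all genes. By limma, 2 of the 8 tested were called higher and 4 lower, against 7.54 and 12.6% of all genes tested. Stat4, the transducer of IL-12 signals, had 0 kb in both LPD lists, against 9.83 and 9.78 kb in B cells (-4.37 ± 0.126, limma adjusted p = 0.000963). Crtam, a receptor of activated cytotoxic cells, had 0.946 and 0.661 kb in LPD and 0 kb in both B cell lists (1.37 ± 0.182, limma adjusted p = 0.0107). Il2rb, the beta chain of the IL-2 receptor, had 0.481 and 0.929 kb in LPD and 0 kb in both B cell lists (1.24 ± 0.234, limma adjusted p = 0.0257). Stat4, Crtam and Il2rb each had no peak in 1 group and passed the minimum length through the other alone. Their p-values thus add no support to the lengths themselves. Crtam could not be tested without LPD list 1, nor Il2rb without LPD list 2. For H3K18ac 2 of 8 tested were called higher and 4 lower, against 29.4 and 3.46% of all genes tested, and for H3K56ac 4 of 8 higher and 4 lower, against 39.4 and 3.26%. None of the 6 killer lectin receptor genes on that list (Klrk1, Klre1, Klra1, Klrc1, Klrc2 and Klri2) had a peak in any LPD or B cell list.

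Markers of other cells differed between LPD and B cells as well. For comparison, 48.7% of all genes had H3K27ac in LPD and 49.6% in B cells. B cell identity genes had H3K27ac at 14 of 15 in LPD, with summed lengths of 94.9 to 150 kb, and at 15 of 15 in B cells, with 191 to 204 kb. Erythroid and megakaryocyte genes had it at 5 of 14 in LPD, with 4.59 to 11.3 kb, and at 2 of 14 in B cells, with 1.89 to 2.17 kb, and Gata1, Epor, Pf4, Gp1ba and Ppbp were among those with no peak in the LPD lists. Myeloid genes had it at 5 of 19 in both, with 6.96 to 10.7 kb in LPD and 10.6 kb in each B cell list, and Csf1r, Cd14, Lyz2, Mpo, Elane and S100a8 among others had none in either. Dendritic genes had it at 5 of 10 in LPD, with 15.2 to 24.8 kb, and at 6 of 10 in B cells, with 14.6 to 14.9 kb, and Clec9a and Itgax had none in either. Stem and progenitor genes had it at 6 of 14 in LPD, with 32.8 to 52.0 kb, and at 7 of 14 in B cells, with 54.0 to 57.1 kb, and Kit, Gata2, Rag1 and Rag2 had none in either. Non-blood genes had it at 1 of 14 in LPD, Gfap, with 0.429 to 0.552 kb, and at 0 of 14 in B cells. For H3K18ac and H3K56ac, whose LPD lists are the longer ones, the summed lengths were larger in LPD. B cell identity genes had 83.7 to 133 kb of H3K18ac in LPD and 44.9 to 49.3 kb in B cells, and 68.0 to 76.1 kb of H3K56ac in LPD and 33.4 to 34.0 kb in B cells. Myeloid genes had 8.56 to 12.9 kb of H3K18ac in LPD and 2.91 to 3.74 kb in B cells, and 6.05 to 6.91 kb of H3K56ac in LPD and 1.22 to 1.57 kb in B cells. Of the myeloid genes, Fcgr3 was called higher in LPD in all 3 marks. Csf3r was called lower in LPD in H3K27ac and higher in H3K18ac and H3K56ac, where Cd68 was called higher as well. Dendritic genes had 23.8 to 33.9 kb of H3K18ac in LPD and 5.66 to 7.33 kb in B cells, and up to 16.3 kb of H3K56ac in LPD and up to 3.58 kb in B cells. Erythroid and megakaryocyte genes had 8.42 to 11.3 kb of H3K18ac in LPD and 1.57 to 1.78 kb in B cells, and 3.11 to 4.42 kb of H3K56ac in LPD and 0.911 to 1.12 kb in B cells. Stem and progenitor genes had 35.4 to 54.4 kb of H3K18ac in LPD and 32.1 to 33.1 kb in B cells, and 27.7 to 32.8 kb of H3K56ac in LPD and 18.8 to 20.1 kb in B cells. Non-blood genes had at most 0.781 kb of H3K18ac and 0.264 kb of H3K56ac in LPD, and 0 kb of both in B cells. The part of other cells in the differences at the T and NK genes was not tested.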

How the data were processed

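Peak lists of 15 of the 30 samples were used; 14 RNA samples and 1 input were not analysed here. The deposited files hold only peak positions, 1 list per library, with no score, count or p-value, so the read depth behind a peak is unknown. Bowtie2 2.1.0, Picard, MACS2 2.0.10 and bedtools are named, with mm10, per the submitters' processing notes; their settings are not given in the sources used here.

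Peaks were assigned to genes with RefSeq gene spans of the same build and their length per gene was summed in kb (Python 3.11.15, NumPy 2.4.6, pandas 2.3.3). LPD was set against B cells for each mark with limma 3.58.1 in R 4.3.3, with trend and robust settings, on log2(kb + 0.5), over genes with a mean of at least 0.25 kb, and p-values were adjusted over all genes tested. The procedure was tested on simulated data. For H3K27ac, H3K18ac and H3K56ac it called 39.0, 22.0 and 42.0% of genes with a log2 change of 1. It called 58.0, 45.0 and 66.0% of those with a change of 2. A gene not called may thus still differ. Length is not signal height: a wider or a better resolved library gives more of it. Progenitors, with 1 list per genotype, and the CBP list had no test. Groups came from the sample labels.

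The genes and the comparison lists were chosen with earlier results of these data known. Of 176 list entries 175 matched an annotated gene, 1 of them by an older symbol. All 32 genes are reported, with full values for those called in H3K27ac or with a gained or lost region in several marks, and up to 3 genes per direction from the other T and NK lists. Start windows were ranked by the number of marks that separate LPD from B cells. Alternatives were other added lengths, no minimum, scaled or equal lists, a replicate term, stricter assignment and leaving out each list.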

Additional observations from a re-analysis of the deposited data

How the results depend on the processing

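The 16 calls at T and NK genes kept their direction in every alternative in which the gene could be tested. They all stayed called with 1 kb added, without a minimum, on lengths scaled to equal totals and with the replicate block, 15 did with 0.1 kb added, with lists of equal peak number and with peaks counted for 1 gene only, and 13 with peaks within 1 kb of a gene only. Without 1 LPD list 6 or 8 stayed called, and without 1 B cell list 12, where the list left alone in its group is assumed to vary like the other group. The cause was not tested. Read depth is unknown, so a peak that is missing cannot be told from a peak below the caller's threshold.

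For H3K27ac the number of T and NK genes called higher was 2 on scaled lengths and 0 to 1 without 1 list, and the number called lower was 2 with peaks within 1 kb only and 3 to 7 without 1 list. Genes called higher numbered 2470 on scaled lengths and 610 to 1667 without 1 list, and genes called lower 912 to 3562 without 1 list. T and NK genes with a gained region numbered 3 to 5, and with a lost one 4 to 7, without 1 list. For H3K18ac 1 to 6 T and NK genes were called higher and 1 to 2 lower without 1 list, and 7 were lower on scaled lengths. Genes called higher numbered 1989 on scaled lengths, 2015 with equal lists and 1028 to 2517 without 1 list, and genes called lower 3705, 628 and 169 to 267. T and NK genes with a gained region numbered 5 with equal lists and 5 with peaks within 1 kb only. For H3K56ac 0 to 1 T and NK genes were called higher and 0 to 1 lower without 1 list, and 4 were lower on scaled lengths. Genes called higher numbered 1486 on scaled lengths, 2565 with equal lists and 0 to 3781 without 1 list, and genes called lower 2542 on scaled lengths and 0 to 196 without 1 list. Without LPD list 1 or 2 limma called no gene for H3K56ac, with 3744 and 3390 genes at an unadjusted p under 0.05. T and NK genes with a lost region numbered 5 with equal lists and 3 to 6 without 1 list.

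Counting only peaks of at least 0.5 kb, T and NK genes with H3K27ac numbered 3 in LPD, against 8 with peaks of any width. Most of these genes thus had only narrower H3K27ac peaks in at least 1 LPD list, and the number in B cells moved less. With H3K18ac they numbered 6 in LPD and 6 in B cells, and with H3K56ac 4 in LPD and 5 in B cells. In progenitors they numbered 3 in null and 8 in wild type. With 0.1 kb added, 10 were 2-fold or more lower in null progenitors.

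Log2 ratios that turned sign were none of the calls. In H3K27ac Cd5 was at 0.20 on scaled lengths, 0.08 with equal lists and -0.39 to 0.33 without 1 list. In H3K18ac Lck was at -0.16 on scaled lengths, Cd2 at 0.31 with peaks within 1 kb only and -0.34 to 0.22 without 1 list, Cd5 at -0.67 on scaled lengths, -0.16 with equal lists, -0.27 with peaks within 1 kb only and -0.06 to 0.29 without 1 list, and Klrb1c at -0.21 on scaled lengths, -0.46 with equal lists and -0.03 to 0.59 without 1 list. In H3K56ac Cd247 was at -0.84 to 0.24 without 1 list, Lck at -0.31 on scaled lengths, Cd2 at 0.47 with peaks within 1 kb only and -0.22 to 0.21 without 1 list, and Cd5 at -0.51 on scaled lengths and -0.37 with equal lists.

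Lists with the same number were not treated as pairs. Between LPD and B cells, the differences of list 1 from list 2 correlated at 0.02 for H3K27ac, -0.02 for H3K18ac and -0.03 for H3K56ac. This cannot show whether such lists share a mouse or a batch. With the replicate block, 1281 genes were called higher and 2115 lower for H3K27ac, and Lck was called lower as well (adjusted p = 0.0261 by limma).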
